A study of Mus musculus with 6 samples.

Results

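The P4-ATPases are the phospholipid flippases of the cell, and 9 of their genes were followed here in mouse liver after vertical sleeve gastrectomy (VSG, bariatric surgery in which much of the stomach is cut away to leave a narrow sleeve). They were 8 P4-ATPase genes (Atp8a1, Atp8b1, Atp9a, Atp9b, Atp10a, Atp10d, Atp11a and Atp11b) and Tmem30a, the gene of a beta subunit that most P4-ATPases share. The genes were chosen by name with measured values from these same sham and VSG libraries in view. The differences between the groups given for the 9 genes are therefore a description, and their adjusted p-values support nothing beyond it. The 9 genes stood among 55385 genes in the deposited table, and all 9 were among the 14454 with enough counts to be tested.

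Poly(A) RNA from whole liver was sequenced in 6 male C57BL/6 mice, 3 after VSG and 3 after a sham operation, with 1 library per mouse. All 6 mice entered the study at 6 to 8 weeks of age, ate a high-fat diet for 10 weeks before the operation and for 12 weeks after it, and gave about 40 mg of liver each. The sham mice thus shared the diet, its duration and the surgery short of gastrectomy with the VSG mice, and no lean or unoperated group was analysed here. The replicates carried the numbers 1 to 3 for sham and 4 to 6 for VSG.

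A flippase uses ATP to move phosphatidylserine, phosphatidylethanolamine and, for some members, phosphatidylcholine or glucosylceramide from the outer leaflet of a membrane to the cytosolic leaflet. Most P4-ATPases leave the endoplasmic reticulum only when bound to a CDC50 protein, and TMEM30A is the CDC50 protein of most cells, while ATP9A and ATP9B work without one. In the liver the family is best known through ATP8B1, which keeps the canalicular membrane of hepatocytes stable against bile salts and is mutated in progressive familial intrahepatic cholestasis.

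The libraries held between 22804397 and 24191778 counts, so that 3 counts, the most that a reading of 0 allows, corresponded to 0.111 to 0.143 CPM (read counts relative to TMM-scaled library size), counting error only. Over all genes tested, 2118 passed an adjusted p of 0.05 (edgeR quasi-likelihood test, Benjamini-Hochberg over the 14454 genes), 981 higher and 1137 lower after VSG. Scaled by total counts, the split was 486 higher and 1512 lower, and that scaling moved the median log2 fold change of all genes from 0.03 to -0.11. Hepatocyte markers were high in every library, with a summed level of 10 genes between 79619 and 127093 CPM in sham and between 62706 and 98660 CPM in VSG livers, and 0 of the 10 passed the test (3 had an unadjusted p under 0.05, beside 33.9% of all genes tested). Markers of neutrophils and their granules did differ: 12 of 12 were higher after VSG, beside 6.79% of all genes tested, from a summed 2.92 to 15.3 CPM in sham to 1895 CPM in VSG replicate 4, 156 CPM in replicate 5 and 873 CPM in replicate 6.

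Among the 9 flippase genes, Atp11a, Atp8b1 and Atp8a1 were higher and Atp9a was lower after VSG at an adjusted p under 0.05, and the other 5 did not pass. The 4 of 9 genes past the threshold stood beside 14.7% of all genes tested, the 3 higher ones beside 6.79% and the 1 lower one beside 7.87%. Sham and VSG libraries did not overlap in 6 of the 9 genes, against 39.7% of all genes tested. The median log2 fold change of the 9 genes was 0.58, and that of all genes tested was 0.03. Because the list was drawn up with results of this contrast known, nothing is read from these shares. In RNA from whole liver, a change in the number of cells of a type and a change in RNA per cell cannot be told apart.

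**Figure D1:**
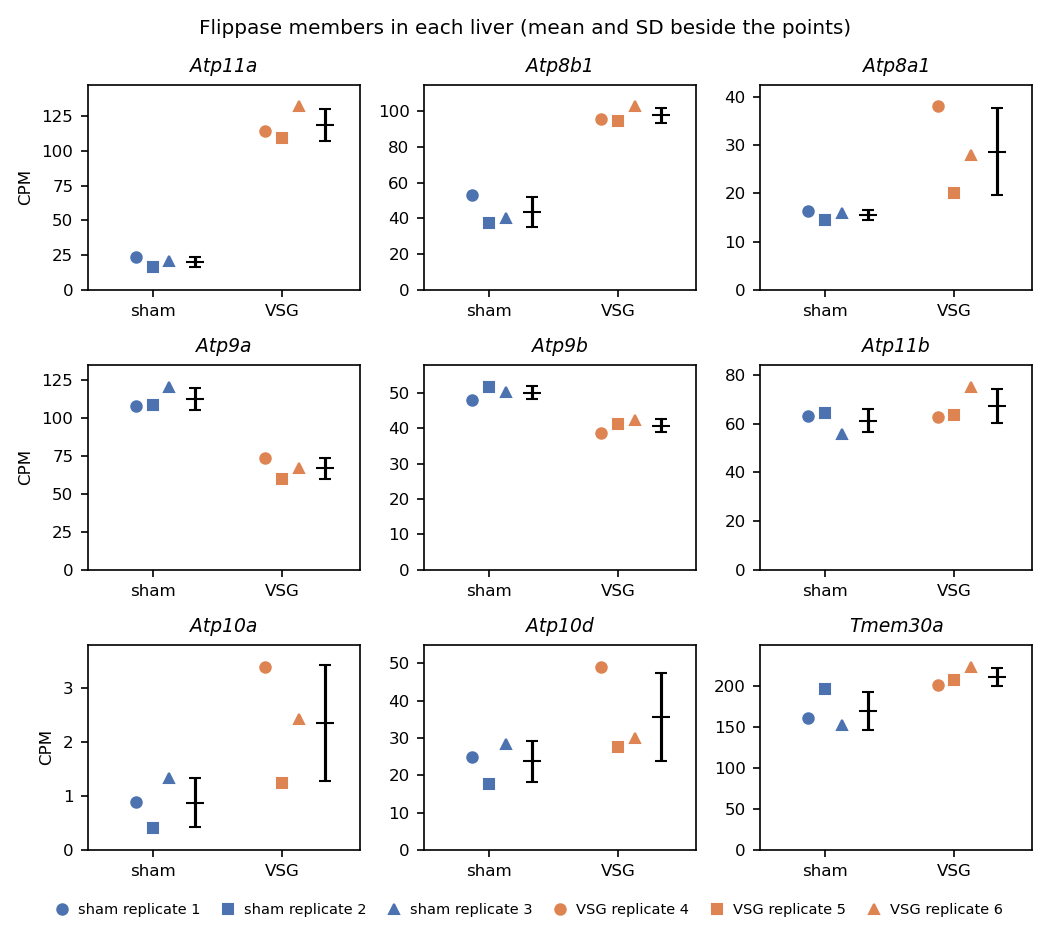
Level of each of the 9 flippase genes in each library (CPM, linear axes from 0), with the mean and SD of 3 mice beside the points. Atp11a lay between 16.2 and 23.4 CPM in sham and between 109.6 and 132 CPM in VSG livers, Atp9a was lower in every VSG liver, and the points of Atp10a, Atp10d and Atp11b overlapped.

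Atp11a, which encodes a flippase of the plasma membrane specific for phosphatidylserine and phosphatidylethanolamine, showed the largest difference of the 9 genes. It lies on the plus strand at chr8:12757014-12868728 (mm10 coordinates of GENCODE M21) and its annotated exons merge into 33 blocks. The Atp11a level was 23.4, 16.2 and 20.6 CPM in sham replicates 1, 2 and 3, and 115, 109.6 and 132 CPM in VSG replicates 4, 5 and 6. All 3 VSG livers were far above the highest sham liver, and the 3 VSG livers differed little from each other. The group means were 20.05 ± 3.61 CPM (SD, n = 3) in sham and 119 ± 11.8 CPM (SD, n = 3) in VSG livers. This was a 5.92-fold difference, or a log2 fold change of 2.57 (SE 0.16, adjusted p = 0.00177 by edgeR). Of the 14454 genes tested, 197 had a log2 fold change as high as that of Atp11a or higher, and 163 of those passed the threshold. The Atp11a difference passed in 12 of 12 other fits, with log2 fold changes between 2.40 and 2.68. Along 371 bases its exons lie opposite the annotated genes Gm15347 and Gm15350, which held at most 1 count in any library.

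The 250 bases before the start are shown for Atp11a and Atp8a1, which were higher, and for Atp9a, which was lower, to set the promoters of genes that moved in opposite directions side by side. They are RefSeq promoter sequences of the GRCm38.p6 build, written 5′ to 3′ on the strand of the gene, and capitals mark each GC box (GGGCGG, or CCGCCC on the other strand). The Atp11a stretch lies at chr8:12756766-12757015 on the plus strand, the Atp8a1 stretch at chr5:67847432-67847681 on the minus strand and the Atp9a stretch at chr2:168741801-168742050 on the minus strand.
Atp11a: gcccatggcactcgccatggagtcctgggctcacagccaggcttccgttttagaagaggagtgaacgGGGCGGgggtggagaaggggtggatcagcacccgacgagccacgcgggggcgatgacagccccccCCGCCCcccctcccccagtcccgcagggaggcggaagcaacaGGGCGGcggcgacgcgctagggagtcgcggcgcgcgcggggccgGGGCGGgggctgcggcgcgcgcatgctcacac
Atp8a1: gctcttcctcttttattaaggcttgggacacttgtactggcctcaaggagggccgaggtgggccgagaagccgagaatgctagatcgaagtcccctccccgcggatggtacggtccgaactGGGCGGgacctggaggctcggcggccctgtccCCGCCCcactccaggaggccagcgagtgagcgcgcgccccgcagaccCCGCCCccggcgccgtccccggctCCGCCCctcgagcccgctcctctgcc
Atp9a: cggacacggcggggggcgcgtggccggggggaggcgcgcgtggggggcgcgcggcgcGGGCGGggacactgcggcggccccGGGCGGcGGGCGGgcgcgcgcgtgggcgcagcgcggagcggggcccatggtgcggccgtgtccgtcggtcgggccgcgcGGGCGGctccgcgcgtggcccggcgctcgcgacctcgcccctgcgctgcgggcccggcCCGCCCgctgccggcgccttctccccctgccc
For Atp9a the table holds 4 starts, and the one shown is the start held by most annotated transcripts (judged by whether the transcript contains the bases just downstream of it), 4 of 11. It lies 609 bases downstream of the start of the gene in GENCODE M21, so that the Atp9a stretch lies inside the annotated gene. The Atp11a start is held by 2 of 11 transcripts and that of Atp8a1 by 5 of 14.

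All 3 stretches were rich in CpG. Atp11a had 29 CpG and 74.4% GC, Atp8a1 had 25 CpG and 70.4% GC, and Atp9a had 53 CpG and 88.0% GC, against a median of 6 CpG and 52.4% GC over all 32851 promoters in the table. GC boxes numbered 4 before Atp11a, 4 before Atp8a1 and 5 before Atp9a. Of all promoters, 32.7% held a GC box. The same windows were read for Atp11b (6 GC boxes), Atp10a (3 GC boxes and 1 CCAAT box) and Tmem30a (0 GC boxes), so that 6 of the 9 genes were read. These last genes did not pass, and their windows were above the median as well. Atp11b had 24 CpG and 67.6% GC, Atp10a 14 CpG and 55.6% GC, and Tmem30a 22 CpG and 62.8% GC. On both strands of these 6 windows, no TATA box (TATAAA, in 12.4% of all promoters), no CRE (TGACGTCA, 1.55%), no E box (CACGTG, 6.02%), no STAT site (TTCNNNGAA, 7.02%) and no C/EBP site (TTGCNNAA, 9.56%) was found. CCAAT stood in 33.8% of all promoters. The start used for Atp10a is held by 0 of 2 annotated transcripts and lies 2036 bases downstream of the start of the gene in GENCODE M21. The Atp10a window thus also lies inside the annotated gene. The start of Atp11b is held by 0 of 11 and lies 43 bases from the annotated one, and that of Tmem30a is held by 4 of 4. Atp10d is not in the table, and the windows of Atp8b1 and Atp9b, both on chromosome 18, were not read.

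Atp8b1, the canalicular flippase gene of hepatocytes (chr18:64528967-64661267, minus strand), was also higher. Its level was 53.2, 37.4 and 39.9 CPM in sham replicates 1, 2 and 3, and 95.8, 94.5 and 103 CPM in VSG replicates 4, 5 and 6. Every VSG liver was above every sham liver, and the 3 VSG livers lay close together, while sham replicate 1 stood above the other two. The means were 43.5 ± 8.49 CPM (SD, n = 3) and 97.7 ± 4.41 CPM (SD, n = 3), a 2.25-fold difference with a log2 fold change of 1.17 (SE 0.15, adjusted p = 0.00934 by edgeR). Without sham replicate 3 the adjusted p was 0.0568, and without VSG replicate 6 it was 0.0524, with log2 fold changes of 1.10 and 1.13. Over all genes, 159 passed without sham replicate 3 and 210 without VSG replicate 6, against 2118 with all libraries, so most calls of any gene were lost there.

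Atp8a1 encodes a phosphatidylserine flippase of the Golgi, endosomes and plasma membrane and lies at chr5:67618140-67847434 on the minus strand. Its level was 16.3, 14.4 and 16.0 CPM in sham replicates 1, 2 and 3, and 38.1, 20.05 and 28.0 CPM in VSG replicates 4, 5 and 6. The groups did not overlap, but VSG replicate 5 stood close to the sham livers, which barely differed among themselves. The log2 fold change was 0.88 (SE 0.23, adjusted p = 0.0460 by edgeR), from 15.6 ± 1.0 to 28.7 ± 9.05 CPM (SD, n = 3 each), a 1.84-fold difference. This call was the least stable of the 4. It was lost under limma-voom (adjusted p = 0.0640), with total counts as the scaling (0.0898) and without sham replicate 1 (0.0938), sham replicate 2 (0.124), sham replicate 3 (0.149), VSG replicate 4 (0.0723) or VSG replicate 6 (0.122). Exons of Atp8a1 lie opposite Gm15477 and Shisa3 along 204 bases, and reads there could not be assigned to a strand with certainty, since the strand setting of the counting is not given in the sources used here.

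Atp9a, a flippase gene of endosomes and the trans-Golgi network (chr2:168634438-168742409, minus strand), was the 1 gene of the 9 that was lower past the threshold. Its level was 108, 108 and 120.4 CPM in sham replicates 1, 2 and 3, and 73.5, 59.8 and 66.7 CPM in VSG replicates 4, 5 and 6. All VSG livers were below all sham livers, with similar spread in both groups. The means were 112 ± 7.19 and 66.6 ± 6.86 CPM (SD, n = 3 each), a log2 fold change of -0.75 (SE 0.11, adjusted p = 0.0134 by edgeR), or a level 1.68-fold lower after VSG. The adjusted p was 0.0721 without sham replicate 3 and 0.0671 without VSG replicate 6.

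Its closest relative Atp9b, a Golgi flippase gene, was at 48.1, 51.8 and 50.3 CPM in sham replicates 1, 2 and 3, and at 38.7, 41.1 and 42.4 CPM in VSG replicates 4, 5 and 6. The groups did not overlap, and the 3 livers of each group were close together. The Atp9b log2 fold change of -0.30 (SE 0.08) missed the threshold (adjusted p = 0.0570 by edgeR). It passed with DESeq2 (adjusted p = 0.0386) and with total counts as the scaling (0.0429).

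Tmem30a encodes the CDC50 subunit on which the products of Atp8a1, Atp8b1, Atp10a, Atp11a and Atp11b depend. Its level was 160.3, 196 and 152 CPM in sham replicates 1, 2 and 3, and 201, 207 and 223 CPM in VSG replicates 4, 5 and 6. The groups did not overlap, but sham replicate 2 came close to VSG replicate 4. The log2 fold change of 0.31 (SE 0.13) missed the threshold (adjusted p = 0.151 by edgeR).

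The last 3 genes did not pass and their groups overlapped. Atp11b, a phosphatidylserine flippase gene of endosomes and the Golgi, was at 63.2, 64.6 and 55.9 CPM in the 3 sham livers and at 62.7, 63.6 and 75.3 CPM in the 3 VSG livers (a log2 difference of 0.13, SE 0.11, adjusted p = 0.428 by edgeR). Atp10a, which encodes a phosphatidylcholine flippase of the plasma membrane, was barely detected, at 0.886, 0.411 and 1.33 CPM in sham and 3.39, 1.24 and 2.43 CPM in VSG livers. Its counts ran from 9 to 75 per library, and its log2 fold change of 1.41 had an SE of 0.52 (adjusted p = 0.109 by edgeR). Atp10d, whose human relative flips glucosylceramide, is annotated as a polymorphic pseudogene in GENCODE M21. It was at 24.9, 17.8 and 28.4 CPM in sham and 49.0, 27.6 and 29.9 CPM in VSG livers, so that only VSG replicate 4 stood above the sham range by more than a few CPM (log2 fold change 0.58, SE 0.27, adjusted p = 0.175 by edgeR).

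Of the same family, 8 genes outside the list were also read, 6 P4-ATPase genes and 2 CDC50 genes. Of these, 5 had enough counts to be tested, and 0 of the 5 passed in the edgeR fit, beside 14.7% of all genes tested. Of the 5, 1 had an unadjusted p under 0.05, beside 33.9% of all genes tested, and their median log2 fold change was 0.0045. Tmem30b, another CDC50 gene, was at 48.9, 60.1 and 53.4 CPM in sham and 42.1, 60.4 and 60.4 CPM in VSG livers, with a log2 fold change of 0.0045 (SE 0.16, adjusted p = 0.987) whose sign changed between scalings.

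The other tested relatives were low. Atp8a2, a flippase gene known mainly from neurons and photoreceptors, held at most 15 counts in a library, and its log2 fold change of 1.42 (SE 0.38) lay just outside the threshold (adjusted p = 0.0501 by edgeR) although its groups did not overlap. Exons of Atp8a2 share 241 bases with Nupl1 on the same strand and lie opposite 4930563I02Rik and Gm19716 along 2169 bases. How reads there were counted is not given in the sources used here. Atp8b4 was at 5.95, 2.97 and 4.26 CPM in sham and 17.1, 2.78 and 8.63 CPM in VSG livers (a log2 difference of 1.11, SE 0.61, adjusted p = 0.242 by edgeR), and VSG replicate 5 was below all sham livers. Without VSG replicate 5, Atp8a2 (adjusted p = 0.0474) and Atp8b4 (0.0418) passed. Without VSG replicate 4 the log2 fold change of Atp8b4 was 0.37 (adjusted p = 0.666). Atp8b2 (log2 fold change -0.20, SE 0.21) and Atp8b5 (-0.16, SE 0.37) did not pass. Atp8b3 and Tmem30c had 0 counts in all 6 libraries, which allows up to 3 counts in each, and Atp10b had at most 3 counts, so none of them was tested.

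**Figure D2:**
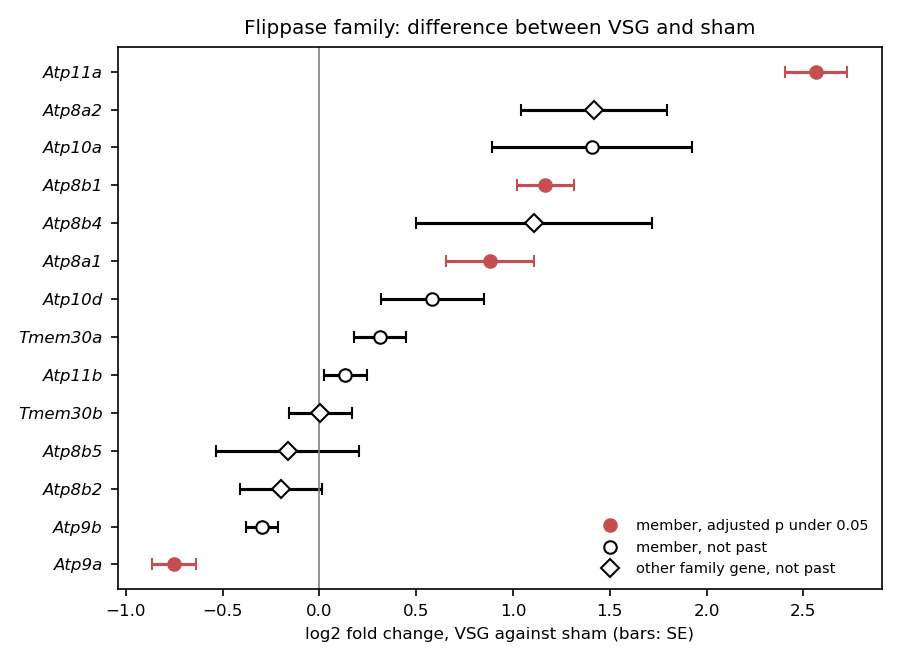
Log2 fold change (VSG against sham, bars are SE) of the 14 tested flippase and CDC50 genes reported, with circles for the 9 listed genes, diamonds for the other family genes and red for an adjusted p under 0.05. Atp11a stands apart at 2.57 and Atp9a lies lowest at -0.75, while the wide bars of Atp10a, Atp8a2 and Atp8b4 belong to genes with few counts or with VSG livers far apart.

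Levels of different genes were compared as FPKM (counts scaled to library size and to the kilobases of merged exons). Among the genes reported, Tmem30a was highest in sham livers with 30.0 FPKM, followed by Atp9a with 18.9 and Tmem30b with 18.1 FPKM, and the values of the last pair overlapped. Atp11b (6.68 FPKM) and Atp8b1 (6.47) overlapped as well, and Atp9b (4.21), Atp10d (3.02), Atp11a (1.80) and Atp8a1 (1.09) followed without overlap. In VSG livers Tmem30a (37.3 FPKM) was again the highest of them. There Atp8b1 (14.5 FPKM) overlapped Tmem30b (18.2), and Atp11a (10.7) overlapped Atp9a (11.3). Thus Atp11a was the eighth of the 14 tested family genes reported by mean FPKM in sham livers and the fifth in VSG livers. Merged exon length counts every annotated exon, so levels of genes with long, rarely used exons read too low on this scale.

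**Figure D3:**
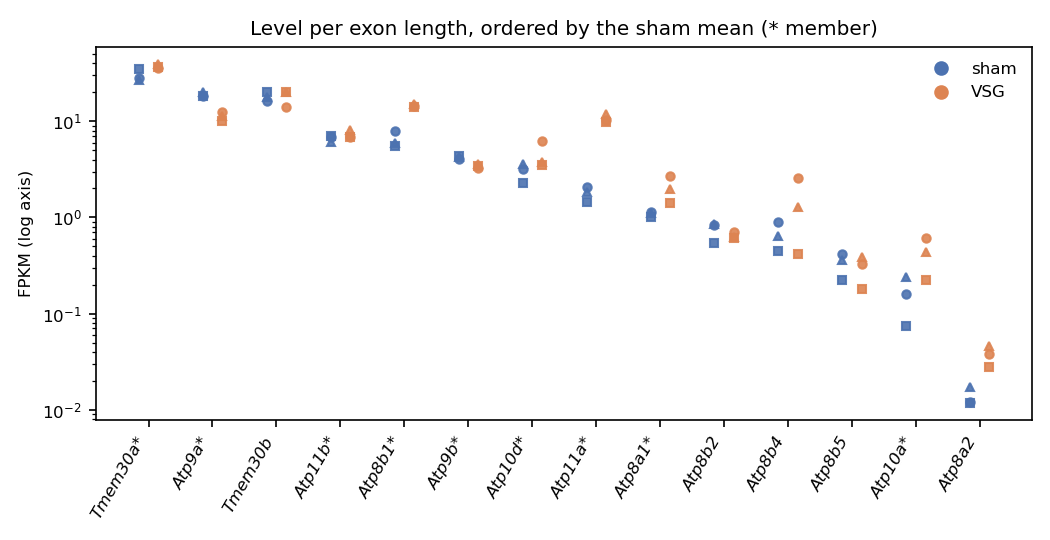
Level per exon length (FPKM, log axis) of the 14 tested family genes reported in each library, ordered by the sham mean, with an asterisk for listed genes. Tmem30a lies highest of these in both groups, and Atp11a moves from a mean of 1.80 FPKM in sham to 10.7 FPKM in VSG livers, beside Atp9a at 11.3 FPKM.

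The make-up of the transcripts of the 8 listed P4-ATPase genes differed accordingly, as shares of their summed FPKM. That sum was 42.4 ± 2.0 FPKM in sham and 54.2 ± 4.01 FPKM in VSG livers (SD, n = 3 each). Atp11a made up 4.81, 3.63 and 4.25% of it in sham livers and 18.2, 19.8 and 21.01% in VSG livers. The share of Atp9a was 41.7, 45.7 and 46.9% in sham and 22.0, 20.4 and 19.99% in VSG livers, and that of Atp8b1 was 18.1, 13.9 and 13.7% and 25.2, 28.4 and 27.1%. None of these 3 shares overlapped between the groups. The ratio of Atp8b1 to Atp9a was 0.435, 0.304 and 0.292 in sham livers and 1.15, 1.39 and 1.36 in VSG livers, so that Atp8b1 was the lower of the pair in every sham liver and the higher in every VSG liver. The 6 listed P4-ATPase genes other than Atp9a and Atp9b summed to 0.652 ± 0.132 times the Tmem30a level in sham and 1.06 ± 0.0851 times in VSG livers (SD, n = 3 each). Without Atp10d, a polymorphic pseudogene in the annotation, the ratios were 0.548 ± 0.103 and 0.938 ± 0.0475, a sum chosen after the data were seen. The groups overlapped in neither ratio. Both ratios leave out Tmem30b, another CDC50 gene (mean 18.1 FPKM in sham and 18.2 FPKM in VSG livers), and the P4-ATPase genes outside the list.

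The 3 VSG livers did not respond alike in all flippase genes. Atp8a1, Atp9a, Atp10a and Atp10d, 4 of the 9, were highest in VSG replicate 4, then 6, then 5, an order shown by 24.9% of all genes tested. The same order was that of the 12 neutrophil markers given above and of 12 Kupffer cell and macrophage markers, whose summed level was 468 to 1089 CPM in sham livers and 2935, 999 and 1828 CPM in VSG replicates 4, 5 and 6. Of the Kupffer cell and macrophage markers, 4 of 12 passed the test, all higher (Clec4f, Vsig4, Timd4 and Marco), beside 14.7% of all genes tested that passed and 6.79% that were higher, and 11 of 12 log2 fold changes were positive (median 1.116). Of the neutrophil markers, Mpo and Ly6g were at 0 in sham replicate 2 and Ctsg in sham replicate 3. Atp8a1, Atp10a and Atp10d shared this order with positive log2 fold changes, and Atp9a with a negative one. In sham livers both marker sums and Atp8a1 were highest in replicate 1, while Atp10a and Atp10d were highest in replicate 3. The part of neutrophils and macrophages in the differences of these genes was not tested. Atp11a and Atp8b1 differed by at most 1.21-fold between VSG livers, while the neutrophil sum differed by 12.2-fold, and the part of those cells in the differences of Atp11a and Atp8b1 was not tested either.

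Other cell types were read in the same way. Summed stellate cell markers were at 803 to 1116 CPM in sham and 365 to 708 CPM in VSG livers. Of these 10 markers, 3 passed the test, all lower, beside 14.7% of all genes tested that passed and 7.87% that were lower, and 9 had an unadjusted p under 0.05, beside 33.9%. All 10 log2 fold changes were negative (median -0.91), and the part of these cells in the fall of Atp9a was not tested. Of 10 sinusoidal endothelial markers 0 passed (1 had an unadjusted p under 0.05), with sums of 425 to 511 CPM and 431 to 531 CPM. Of 7 bile duct markers tested, 4 had a negative and 3 a positive log2 fold change (median -0.76), 3 had an unadjusted p under 0.05, and 1 passed, Sox9, which was higher. Their summed level went the other way from their median, with 36.2 to 65.6 CPM in sham and 56.7 to 133 CPM in VSG livers, and overlapped between the groups. Of the erythroid markers 0 of 8 and of the T cell markers 0 of 9 passed (1 unadjusted p under 0.05 each), with 7 positive log2 fold changes in each list (medians 0.57 and 0.30), and both sums overlapped between the groups. Of 7 B cell markers all 7 log2 fold changes were positive (median 0.64), and 1 passed (Jchain), the 1 with an unadjusted p under 0.05. The B cell sums did not overlap, at 8.36 to 15.1 CPM in sham and 32.3 to 39.4 CPM in VSG livers. Of the 7 tested B cell markers taken singly, only 1 did not overlap between the groups, beside 39.7% of all genes tested. The part of B cells in the flippase differences was not tested.

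**Figure D4:**
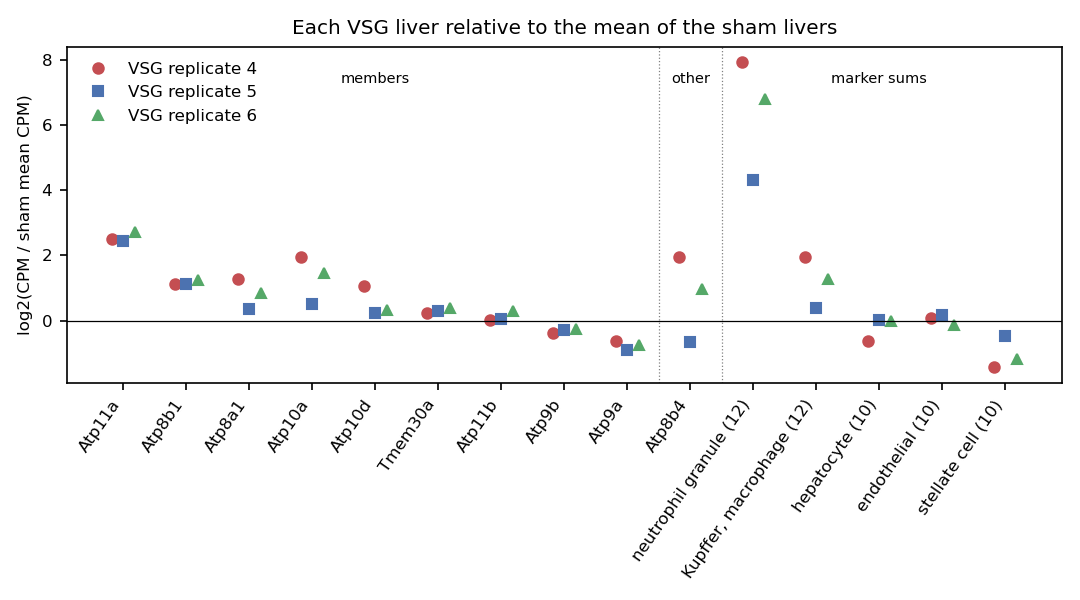
Each VSG liver against the mean of the 3 sham livers, as log2 ratios of CPM, for the 9 listed genes, Atp8b4 and the summed markers of 5 cell types (number of genes in brackets). The 3 livers lie close together for Atp11a and Atp8b1, and are spread for Atp8a1, Atp10a, Atp10d and Atp8b4, with replicate 4 highest as in the neutrophil granule and Kupffer cell sums.

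Genes that act with the flippases were read next, from lists drawn up with earlier results of these data known. Of 5 genes read here from a list of partners and caspases, 1 rose and 2 fell (median log2 fold change 0.22), beside 6.79% of all genes tested that were higher and 7.87% that were lower. Dop1a and Dop1b encode related proteins that bind MON2 in the Golgi and endosomes, and they went in opposite directions. Dop1a was at 28.0, 25.3 and 26.0 CPM in sham and 42.5, 36.1 and 46.7 CPM in VSG livers (a log2 difference of 0.66, SE 0.12, adjusted p = 0.0197 by edgeR). Dop1b was at 66.5, 80.1 and 76.6 CPM in sham and 42.5, 56.2 and 55.1 CPM in VSG livers (-0.54, SE 0.14, adjusted p = 0.0468). Neither pair of groups overlapped. Snx3, the sorting nexin of endosomal recycling, fell (-0.47, SE 0.09, adjusted p = 0.0227). Leaving out sham replicate 2 ended all 3 calls (largest adjusted p over all settings 0.156, for Dop1b), as did leaving out sham replicate 3 or VSG replicate 6, and Dop1a also did not pass with total counts. Dop1b passed in 6 of 12 other fits, and was lost as well under limma-voom, without sham replicate 1 and without VSG replicate 4.

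Scramblases let phospholipids cross between leaflets in both directions without ATP. Of 17 such genes, 12 were tested, 0 rose and 2 fell (median log2 fold change -0.03), a share near the 14.7% of all genes tested that passed. Plscr2 was at 41.6, 50.1 and 44.5 CPM in sham and 16.2, 23.1 and 19.9 CPM in VSG livers (-1.20, SE 0.15, adjusted p = 0.00888 by edgeR), and Plscr4 also fell (-1.27, SE 0.23, adjusted p = 0.0199). Ano6, the calcium-activated scramblase of platelets, had a log2 fold change of 0.18 (SE 0.29, adjusted p = 0.692). Of 13 receptors and bridging proteins for exposed phosphatidylserine 10 were tested and 2 rose (median 0.12), beside 14.7% of all genes tested that passed and 6.79% that were higher. Timd4, a phosphatidylserine receptor that is also one of the Kupffer cell markers above, was at 6.87, 3.29 and 2.55 CPM in sham and 51.4, 14.3 and 38.5 CPM in VSG livers (3.03, SE 0.57, adjusted p = 0.0216). Pros1, the bridging protein S, had a log2 fold change of 0.59 (SE 0.14, adjusted p = 0.0376). Without sham replicate 3 or without VSG replicate 6, the calls of Plscr2, Plscr4, Timd4 and Pros1 were lost with their signs unchanged (largest adjusted p over all settings 0.146, for Pros1). Plscr4 and Timd4 were also lost without sham replicate 2, and Pros1 with total counts and without sham replicate 1 or 2 or VSG replicate 4.

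ABC transporters carry lipids the other way, out of the cell. Of 11 tested, 1 rose and 1 fell (median log2 fold change 0.02), a share near the 14.7% of all genes tested that passed. Abca1, which exports cholesterol and phospholipid to apolipoprotein A-I, was at 340.3, 329.9 and 311 CPM in sham and 943, 505 and 722 CPM in VSG livers (1.14, SE 0.24, adjusted p = 0.0274 by edgeR). Abcb1a, a multidrug transporter gene, was at 24.1, 19.3 and 22.5 CPM in sham and 4.16, 2.61 and 2.43 CPM in VSG livers, a level 7.15-fold lower (-2.84, SE 0.23, adjusted p = 0.00273). Abcb4, the phosphatidylcholine floppase that works beside ATP8B1 at the canaliculus, was at 547, 509.6 and 493 CPM in sham and 275, 471 and 406 CPM in VSG livers. Its groups did not overlap, yet its difference of -0.43 on the log2 scale (SE 0.21) missed the threshold (adjusted p = 0.204). Abcb1a passed in 12 of 12 other fits, and Abca1 in 8, not without VSG replicate 6 or any 1 sham library (largest adjusted p 0.123).

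Of 12 genes of the canalicular membrane and of inherited cholestasis, 3 of which are also on the ABC list, 1 rose and 1 fell (median log2 fold change -0.35), beside 14.7% of all genes tested that passed. Of the 12, 10 had a negative log2 fold change, 5 an unadjusted p under 0.05, beside 33.9% of all genes tested, and 6 no overlap between the groups, beside 39.7%. Their summed level was 2486 to 2903 CPM in sham and 1633 to 2336 CPM in VSG livers. Usp53 was higher (0.66, SE 0.14, adjusted p = 0.0275 by edgeR) and Myo5b, a motor of recycling endosomes, was lower (-0.57, SE 0.13, adjusted p = 0.0316). Abcb11, the bile salt export pump, overlapped between the groups (0.22, SE 0.22, adjusted p = 0.491). Of 15 genes of phosphatidylserine, phosphatidylethanolamine and phosphatidylcholine synthesis, 0 rose and 3 fell (median -0.38), beside 14.7% of all genes tested past the threshold. Of the 15, 13 had a negative log2 fold change, 9 an unadjusted p under 0.05, beside 33.9% of all genes tested, and 10 no overlap between the groups, beside 39.7%. The 3 that fell were Chpt1, a cholinephosphotransferase (-1.08, SE 0.18, adjusted p = 0.0166), Pcyt1a, the rate-limiting enzyme of phosphatidylcholine synthesis (-0.81, SE 0.14, adjusted p = 0.0167), and Lpcat3, a lysophospholipid acyltransferase (-0.77, SE 0.19, adjusted p = 0.0416). All 5 of these calls kept their sign but were lost without sham replicate 3 or VSG replicate 6 (largest adjusted p over all settings 0.135, for Lpcat3), that of Usp53 also with total counts and without sham replicate 1, that of Myo5b also without sham replicate 1 or 2, and that of Lpcat3 also without sham replicate 1 or 2 or VSG replicate 4. Few genes of any kind passed without sham replicate 3 (159) or without VSG replicate 6 (210).

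The genes around Atp11a were read within 200 kb, a window chosen after the values were seen. Of 6 tested neighbours, 3 passed and all 3 were higher, beside 14.7% of all genes tested that passed and 6.79% that were higher. Over the windows of all 9 flippase genes, 9 of 26 tested neighbours passed (34.6%, beside the same 14.7%), 6 higher and 3 lower. Mcf2l, a guanine nucleotide exchange factor gene that starts 5.08 kb beyond the end of Atp11a on the same strand, was at 0.369, 0.365 and 0.798 CPM in sham and 2.99, 2.74 and 2.24 CPM in VSG livers (a log2 difference of 2.36, SE 0.37, adjusted p = 0.0149 by edgeR). F7, the gene of coagulation factor VII, lies 157 kb beyond and was at 49.8, 59.3 and 44.4 CPM in sham and 83.8, 85.7 and 86.2 CPM in VSG livers (0.74, SE 0.12, adjusted p = 0.0165). The call of Mcf2l was lost without VSG replicate 6 (adjusted p = 0.0574), and that of F7 without VSG replicate 6 (0.0706) and without sham replicate 3 (0.0801). Gm15348, a long noncoding RNA gene on the minus strand 37.9 kb upstream, had 0 counts in all sham livers and 0.814, 0.598 and 2.43 CPM in VSG livers. Against the highest level that 3 counts per library allow in sham, its VSG mean was at least 9.35-fold higher, and at least 5.15-fold higher without VSG replicate 6. Its adjusted p of 0.0294 lay between 0.0243 and 0.0937 when 1 library was left out, and the call held only without VSG replicate 5. Tubgcp3, F10 and Proz had positive log2 fold changes of 0.30, 0.53 and 0.38 that did not pass (adjusted p = 0.0754, 0.0838 and 0.193).

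**Figure D5:**
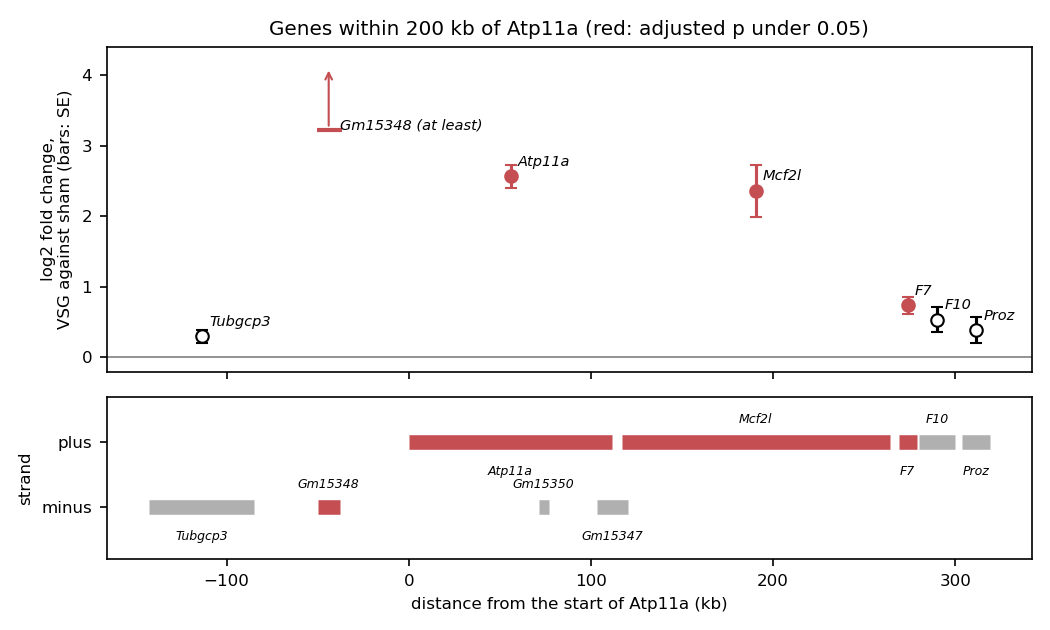
Genes within 200 kb of Atp11a, by distance from its start in kb. The upper panel gives the log2 fold change with its SE (red for an adjusted p under 0.05, filled circles), and for Gm15348, at 0 counts in sham, a lower bound of 3.23 with an arrow in place of the fitted value. The lower panel gives each gene and its strand. Atp11a (2.57) and Mcf2l (2.36) stand side by side on the plus strand, and F7 (0.74) is the nearest coagulation gene.

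Genes whose pattern over the 6 libraries was most like that of Atp11a were found by Pearson's r of log2 CPM among 9957 genes with at least 5 CPM on average. They were Prg4 (r = 0.997), Zfp866 (0.996) and Mink1 (0.995), and 326 genes reached 0.95. A high r does not give the size of a difference. Their log2 fold changes were 1.80, 0.45 and 0.21, against 2.57 for Atp11a, and Mink1 did not pass (adjusted p = 0.110 by edgeR). For Tmem30a the most alike were Ccnt2 (r = 0.995), Ppp1cb (0.992) and Orc3 (0.990), and 84 genes reached 0.95. Like Tmem30a, none of these named genes passed (adjusted p = 0.154, 0.512 and 0.334 by edgeR). These are descriptions over 6 libraries that share their 2 groups and their scaling.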

How the data were processed

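Poly(A) RNA-seq of 6 livers (3 sham, 3 VSG, grouped by their titles) was used. The deposited values were raw counts of reads per gene. Per the authors' processing notes, reads of strand-specific libraries were checked with FastQC 0.10.1, aligned to mm10 with STAR 2.6.0 and counted with featureCounts 2.0.3, for which the methods give another version. The strand setting and the treatment of reads shared by overlapping genes are not given in the sources used here. The deposited table also gives each gene's exon length, another value that entered only the FPKM computed here. Of 55385 gene identifiers, 55144 matched GENCODE M21 without the version and gave symbols, and 54487 matched with it, with the same coordinates.

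Counts were filtered with filterByExpr (minimum count 10, minimum total 15), scaled by TMM and tested with the edgeR 4.0.16 quasi-likelihood test in R 4.3.3, with Benjamini-Hochberg adjustment over all 14454 genes. An adjusted p under 0.05 was called. With 3 against 3, an exact permutation test of one gene cannot go below 0.1, so none was used. Alternatives were DESeq2 1.42.0, limma-voom (limma 3.58.1), RLE size factors, total counts, other filters and leaving out each library. The fits were tested on simulated data.

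The members and gene lists were chosen with earlier results of these data known. All members and the other family genes reported are named, and of the other lists the genes past the threshold together with Abcb4, Abcb11 and Ano6. The lists' Dopey1 and Dopey2 are older names of Dop1a and Dop1b. The marker Ahsp was not found. Some genes of these lists are not reported here, and they were left out of the list counts, medians and sums. Genes near members, other than those around Atp11a, were named after their values were seen.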

Additional observations from a re-analysis of the deposited data

How the results depend on the processing

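Of the settings tried for the 9 flippase genes, 93 gene and setting pairs kept their direction and side of the threshold, 11 lost the call, 2 gained it and 1 reversed (Atp11b, -0.0096 with total counts). Over all genes, 3252 passed with DESeq2 against 2118, and between 159 (without sham replicate 3) and 2732 when 1 library was left out, with 210 without VSG replicate 6. Without a library, between 1 and 4 flippase genes passed, and the 1 gene left without sham replicate 3 or without VSG replicate 6 was Atp11a. In the same way, between 0 and 2 of the other family genes passed, between 0 and 3 partners and caspases, 0 to 2 scramblases, 1 to 2 ABC exporters, 0 to 2 canalicular genes, 0 to 3 synthesis genes and 0 to 3 phosphatidylserine receptors. With DESeq2, 4 canalicular and 8 synthesis genes passed, and with total counts 6 synthesis genes and 1 receptor. The causes of these moves were not tested. The log2 fold change of Tmem30b was -0.014 with DESeq2, -0.013 with limma-voom, -0.0048 with RLE size factors, -0.13 with total counts, -0.026 with no filter beyond 1 count and between -0.097 and 0.16 without a library. That of Atp8b5 ran from -0.40 to 0.081 without a library, above 0 without sham replicate 1 (0.021) and without VSG replicate 5 (0.081). Atp10a and Atp8a2 could not be fitted where at least 10 counts were required in every library. Leaving Atp10d out of the summed flippases, chosen after the data were seen, moved their ratio to Tmem30a in VSG livers from 1.06 to 0.938. Total counts moved the median of all genes by -0.14. No paired analysis was possible because the sham and VSG libraries share no replicate number. Depth limits Atp10a, Atp8a2 and the genes at or near 0 counts most.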

Other observations

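Genes near the other flippase genes also included some past the threshold, named here after their values were seen. Beside Atp8b1, Nars, a tRNA synthetase gene 12.3 kb downstream on the same strand, was higher (log2 fold change 0.51, SE 0.13, adjusted p = 0.0482 by edgeR), and so was Onecut2, a liver transcription factor gene 128 kb downstream (0.76, SE 0.14, adjusted p = 0.0216). Corin, a serine protease gene whose end lies 1.25 kb from that of Atp10d on the other strand, was at 2.36, 7.77 and 6.84 CPM in sham and at 3, 2 and 1 counts in VSG replicates 4, 5 and 6 (adjusted p = 0.00698 by edgeR), while Atp10d itself did not pass. Bend4 near Atp8a1 was higher (1.41, SE 0.37, adjusted p = 0.0482). Cox7a2, a cytochrome oxidase subunit gene 9.07 kb downstream of Tmem30a, was lower (-0.62, SE 0.15, adjusted p = 0.0360), as was Mccc1, a leucine catabolism gene 103 kb downstream of Atp11b (-0.42, SE 0.10, adjusted p = 0.0361). No gene within 200 kb of Atp9a or Atp9b passed, of 2 and 1 tested in the edgeR fit. Of these calls, that of Corin held in each of the 11 other fits that tested it, while those of Nars (4 of 12 fits), Bend4 (5), Mccc1 (7), Cox7a2 (8) and Onecut2 (8) did not hold without sham replicate 3 or without VSG replicate 6.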
